A study of Mus musculus with 16 samples.

Results

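The genes described here are 33 T cell and NK cell genes, listed by symbol and all found among the 18635 genes of the 4 deposited count tables. The list is defined by symbol, by what the products do in lymphocytes, and was drawn up with earlier results of these data known. The data are RNA sequencing of 16 mouse samples, each labelled as a tumour. The tumours are taken to have formed after a line was implanted in a syngeneic mouse, which the sample labels do not state. KPC, a mouse pancreatic cancer line, gave 5 wild-type and 5 Trp53bp1 knockout tumours. ID8, a mouse ovarian surface epithelial cancer line, gave 3 wild-type and 3 Trp53bp1 knockout tumours. The question was what loss of 53BP1, a DNA repair factor encoded by Trp53bp1, does to the immune response to the tumour. The knockout was made in the implanted line, so the lymphocytes of the host carry the intact gene in every group. Each genotype is a single line in the labels, so that knockout and a clonal difference between lines cannot be told apart. No treatment, host strain, age or implantation site is given in the sources used here.

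T cells recognise peptides on MHC molecules through the T cell receptor, which signals through the CD3 chains and CD247. The kinase LCK, held at the coreceptors CD4 and CD8, phosphorylates these chains, ZAP-70 binds them, and the adaptor LAT passes the signal on. NK cells carry no such rearranged receptor and weigh signals from activating and inhibitory receptors, many of them lectin-like and encoded side by side in the NK gene complex. In a tumour, transcripts of most of these genes come mainly from lymphocytes that entered it. Bcl11b and Tcf7 are less specific in these data, as both were present in ID8, where most members were at or near 0. In bulk RNA fewer cells of a type and less RNA per cell cannot be told apart.

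Promoter sequences of 4 members are shown, with motif letters in capitals. Cd3d and Cd3g were chosen because they start on opposite strands of the same stretch of chromosome 9 and encode partners in one complex. Zap70 and Cd96 were chosen because both passed the KPC test below. Each sequence is the 250 bases before the start site, 5′ to 3′ on the gene's strand, from RefSeq on GRCm38.p6, an older build than that of the count tables.
Cd3d, chr9:44981536-44981785, plus strand: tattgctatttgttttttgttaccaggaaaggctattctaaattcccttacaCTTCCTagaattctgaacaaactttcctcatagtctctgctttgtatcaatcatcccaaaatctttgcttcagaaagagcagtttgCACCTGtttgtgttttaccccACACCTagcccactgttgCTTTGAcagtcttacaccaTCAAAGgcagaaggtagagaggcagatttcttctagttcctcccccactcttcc
Cd3g, chr9:44980432-44980681, minus strand: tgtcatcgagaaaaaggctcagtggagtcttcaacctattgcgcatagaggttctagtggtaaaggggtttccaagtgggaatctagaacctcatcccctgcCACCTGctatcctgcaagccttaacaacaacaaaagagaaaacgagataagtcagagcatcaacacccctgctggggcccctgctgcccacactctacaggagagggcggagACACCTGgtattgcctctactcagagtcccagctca
Zap70, chr1:36761548-36761797, plus strand, 1 of 3 starts in the table: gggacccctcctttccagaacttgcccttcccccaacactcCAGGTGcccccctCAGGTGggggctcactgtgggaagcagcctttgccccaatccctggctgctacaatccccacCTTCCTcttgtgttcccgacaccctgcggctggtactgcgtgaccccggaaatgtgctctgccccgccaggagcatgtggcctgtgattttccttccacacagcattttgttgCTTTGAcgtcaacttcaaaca
Cd96, chr16:46120249-46120498, minus strand: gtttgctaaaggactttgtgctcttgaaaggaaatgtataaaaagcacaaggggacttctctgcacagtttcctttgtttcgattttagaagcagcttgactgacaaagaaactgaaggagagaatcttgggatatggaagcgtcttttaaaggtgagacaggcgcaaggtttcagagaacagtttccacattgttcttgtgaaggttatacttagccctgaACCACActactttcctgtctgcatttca
The letters searched on both strands were TGTGGT (RUNX), AGGAAG (ETS), CTTTGA (TCF/LEF), AGGTGT (T-box) and CACCTG (E-box). T-box and E-box letters can share bases, as they do in the Cd3g promoter. Of the 33 members, 23 had a promoter in the RefSeq table, with 30 starts in all among its 32851. RUNX letters were in 36.7% of the 30 member promoters and in 14.0% of all promoters. ETS letters were in 46.7% and 29.5%, and E-box letters in 30% and 17.2%. TCF/LEF letters (13.3% and 13.8%) and T-box letters (13.3% and 11.8%) differed less. These are letter matches and say nothing of binding, and windows of 1 gene share sequence.

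Total counts per library ranged from 17902867 to 19727536, and levels below are counts per 1000000 of that total (CPM). A single count was 0.0507 to 0.0559 CPM, so a member at 0.1 CPM rested on about 2 reads, counting error alone. Trp53bp1 itself was 47.5 to 57.2 CPM in KPC wild type and 27.8 to 38.3 CPM in KPC knockout (exact two-sided permutation p = 0.00794, n = 5 each, the smallest possible). In ID8 it was 43.1 to 48.2 CPM in wild type and 18.3 to 19.3 CPM in knockout (exact two-sided permutation p = 0.1, n = 3 each, the smallest possible). Which part of the gene was deleted is not given in these sources. KPC wild-type replicate 4 stood apart from the other wild-type tumours for most members, and results are given with and without it.

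Most T cell and NK cell genes had a higher fitted level in knockout than in wild-type tumours of KPC, and few of them passed the test. All 33 members were tested in KPC. At an edgeR adjusted p of 0.05 across all 14283 tested genes, 5 members were higher and 0 lower, where 6.67% of all tested genes were called higher and 7.01% lower, 13.7% in all. The 5 that rose were the T cell adhesion gene Cd2, the receptor gene Cd96, the kinase gene Zap70 and the lectin-like receptor genes Klre1 and Klra8. A positive change was fitted for 32 members and a negative one for 1, Tcf7, against 48.2% positive among all genes. The median log2 change was 1.54 over the members and -0.01 over all tested genes. The median standard error was also wider, at 0.55 against 0.12. At an unadjusted p of 0.05, 24 members were higher, where 16.3% of all genes were. Members move together across libraries, so that these counts are not independent.

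**Figure D1:**
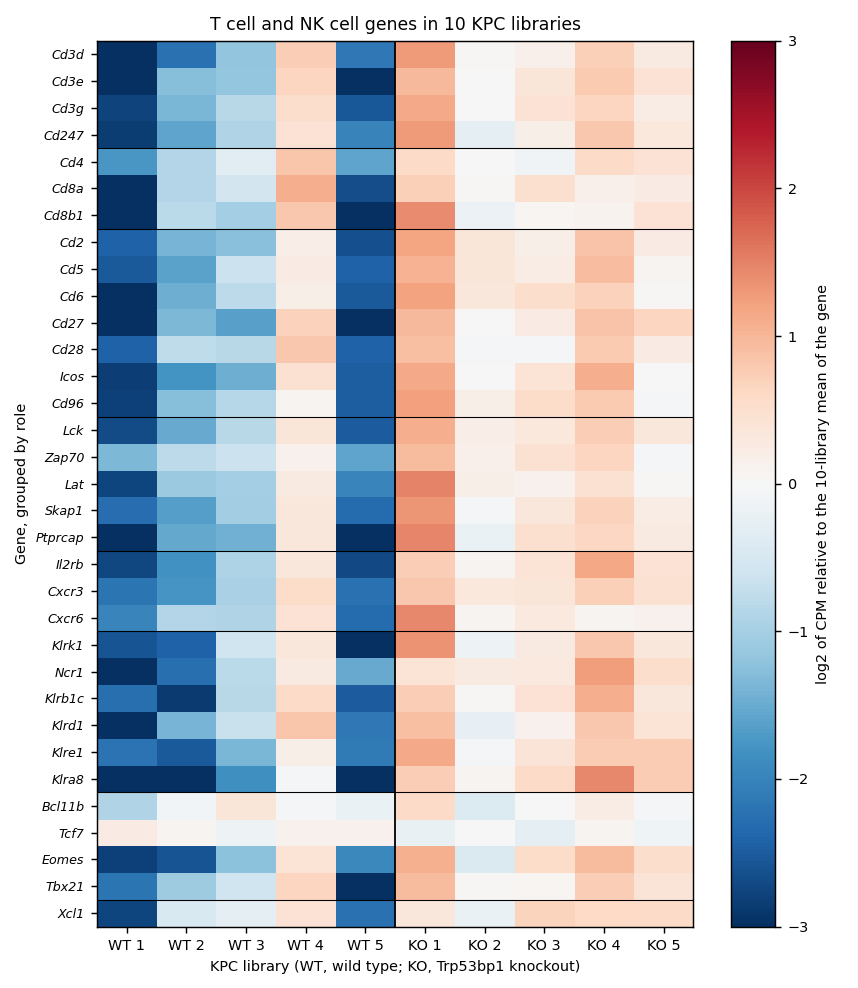
Level of each of the 33 genes in the 10 KPC libraries, as log2 of CPM relative to the gene's mean over the 10 libraries; red is above and blue below that mean, lines part the roles and the genotypes, and values under -3 are drawn at -3. Wild-type replicate 4 resembles the knockout columns for most genes, and wild-type replicates 1 and 5 are the bluest columns, at a median of 14.9% and 18.5% of the 10-library mean.

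The 4 genes of the receptor complex had fitted log2 changes of 1.44 to 1.52, and none passed the test. Cd3e, an invariant chain of the receptor, was 0.518, 2.00, 2.19, 7.56 and 0.559 CPM in wild-type replicates 1 to 5 and 9.63, 4.95, 6.31, 8.45 and 6.55 CPM in knockout replicates 1 to 5. Wild-type replicate 4 lay among the knockout tumours, while the other 4 wild-type tumours were below all of them. The fitted log2 change was 1.498 (SE 0.63, edgeR adjusted p = 0.131). Cd3d, its partner in a CD3 dimer, was 0.414, 1.16, 2.39, 9.08 and 1.23 CPM in wild type and 13.1, 5.53, 5.999, 8.94 and 6.50 CPM in knockout. Again wild-type replicate 4 was the exception, above 4 of the 5 knockout tumours, and the log2 change was 1.51 (SE 0.68, edgeR adjusted p = 0.153). Cd3g, the third CD3 chain, was 1.19, 3.16, 4.58, 11.9 and 1.40 CPM in wild type and 18.1, 8.16, 11.1, 12.7 and 9.49 CPM in knockout. Its log2 change was 1.44 (SE 0.56, edgeR adjusted p = 0.109). Cd247, the zeta chain that carries most of the signalling motifs, was 0.725, 1.74, 2.76, 7.04 and 1.28 CPM in wild type and 12.7, 4.32, 5.84, 9.05 and 6.45 CPM in knockout. Its log2 change of 1.52 (SE 0.55, edgeR adjusted p = 0.0888) was again not a call. In the RefSeq gene order of GRCm38.p6 no protein-coding gene lies between Cd3g, Cd3d and Cd3e. Whether the counting used strand is not stated, so reads where neighbours overlap cannot be assigned with certainty.

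The 3 coreceptor genes had smaller fitted changes, 0.75 to 1.25, and none passed. Cd4, the coreceptor of helper T cells, was 5.03, 9.15, 13.4, 30.0 and 5.59 CPM in wild type and 25.0, 16.6, 15.5, 25.0 and 22.5 CPM in knockout. Its highest value of all 10 tumours was that of wild-type replicate 4, and the log2 change was 0.75 (SE 0.45, edgeR adjusted p = 0.271). Cd8a, a chain of the coreceptor of cytotoxic T cells, was 0.881, 3.84, 4.79, 14.9 and 1.12 CPM in wild type and 11.5, 7.21, 9.81, 7.86 and 8.28 CPM in knockout. Here too wild-type replicate 4 exceeded every knockout tumour, and the other 4 wild-type tumours were below all of them. The log2 change of Cd8a was 0.82 (SE 0.64, edgeR adjusted p = 0.392). Cd8b1, the second chain of that coreceptor, was 0.259, 1.31, 1.15, 4.04 and 0.112 CPM in wild type and 6.22, 2.05, 2.40, 2.49 and 3.14 CPM in knockout. Knockout replicate 1 stood above the rest, and the log2 change was 1.25 (SE 0.72, edgeR adjusted p = 0.251). Without wild-type replicate 4 all 7 genes of the receptor complex and the coreceptors passed, with edgeR adjusted p of 0.00552 (Cd3d) to 0.0353 (Cd8b1).

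**Figure D2:**
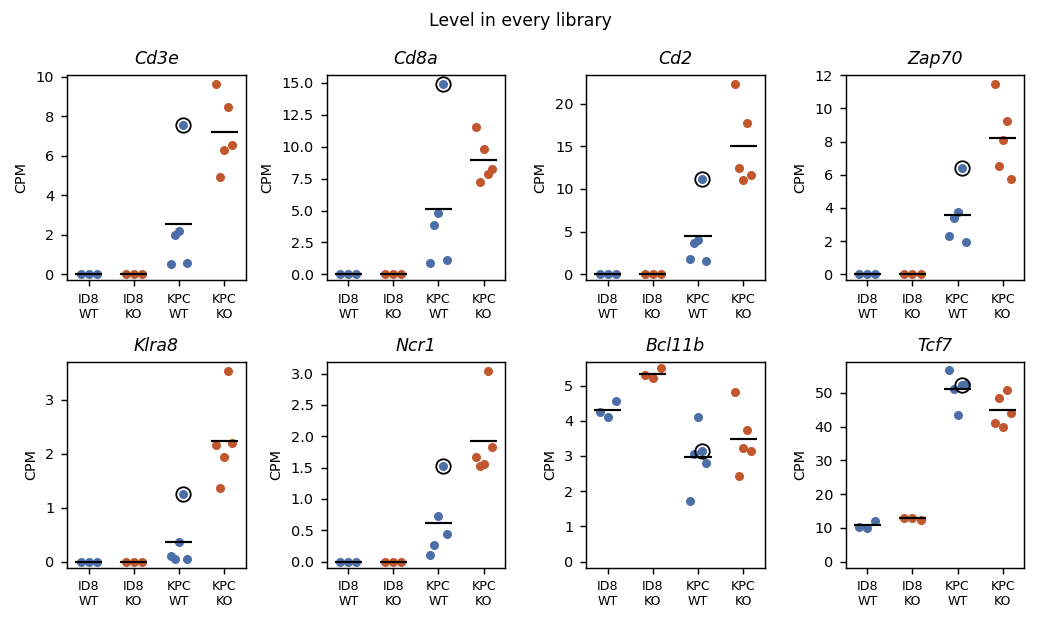
CPM of 8 genes in each of the 16 libraries, by line and genotype, with group means as bars and KPC wild-type replicate 4 ringed; each panel has its own linear axis from 0. The ringed point reaches the knockout range for Cd3e, Cd8a, Cd2 and Zap70, lies just under it for Klra8 and Ncr1, and lies with the other wild-type points for Bcl11b and Tcf7, which are also expressed in ID8.

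Of the 7 adhesion and co-stimulation genes, Cd2 and Cd96 rose in KPC knockout and the other 5 did not pass. Cd2, which binds CD48 in mice and helps T cells and NK cells adhere, was 1.81, 3.68, 4.06, 11.2 and 1.56 CPM in wild type and 22.3, 12.5, 11.0, 17.7 and 11.6 CPM in knockout. Only wild-type replicate 4 reached the lowest knockout value, and it did so by a small margin. Cd2 rose by a log2 change of 1.77 (SE 0.50, edgeR adjusted p = 0.0422). Cd96, which binds the nectin-like protein CD155, was 0.311, 0.894, 1.197, 2.31 and 0.391 CPM in wild type and 5.14, 2.47, 3.18, 3.74 and 2.10 CPM in knockout. Knockout replicate 5 was the one knockout tumour below wild-type replicate 4. Cd96 rose by 1.71 (SE 0.49, edgeR adjusted p = 0.0433) on the log2 scale. The others were the scavenger-receptor genes Cd5 and Cd6, the TNF receptor family gene Cd27 and the co-stimulatory receptor genes Cd28 and Icos. Their log2 changes ran from 1.05 (Cd28) to 1.72 (Icos), with edgeR adjusted p of 0.0582 (Cd5) to 0.218 (Cd28). Cd5 and Cd6 are neighbours, and Cd28 and Icos flank Ctla4, in the GRCm38.p6 gene order.

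Of the 5 genes of proximal receptor signalling, Zap70 rose. Zap70 was 2.33, 3.42, 3.75, 6.41 and 1.95 CPM in wild type and 11.5, 6.53, 8.09, 9.27 and 5.77 CPM in knockout. Its lowest knockout value, in replicate 5, was the only one under wild-type replicate 4. The log2 change was 1.21 (SE 0.32, edgeR adjusted p = 0.0321), the smallest standard error among the 5 members that passed. The other 4 had larger fitted changes with wider errors. Lck, Lat, Skap1, an adaptor gene, and Ptprcap, the gene of a protein bound to CD45, had log2 changes of 1.54 (Lat) to 1.82 (Ptprcap). Their edgeR adjusted p ran from 0.0571 (Skap1) to 0.0735 (Lck). Lat was highest in knockout replicate 1, at 15.5 CPM, and 5.71 to 7.64 CPM in the other knockout tumours.

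Among 6 NK and killer lectin-like receptor genes, Klre1 and Klra8 rose. Ncr1, which encodes the activating receptor NKp46 and marks NK cells and some innate lymphoid cells, was 0.104, 0.263, 0.729, 1.52 and 0.447 CPM in wild type and 1.68, 1.53, 1.56, 3.03 and 1.83 CPM in knockout. All knockout tumours were above all wild-type tumours. However, knockout replicate 2 (1.527 CPM) exceeded wild-type replicate 4 (1.523 CPM) by less than a single read. The log2 change was 1.66 (SE 0.53, edgeR adjusted p = 0.0596), which did not pass. Klrb1c, the gene of the NK1.1 antigen, was 0.725, 0.473, 1.93, 5.15 and 0.614 CPM in wild type and 5.79, 3.53, 4.64, 7.32 and 4.40 CPM in knockout. With wild-type replicate 4 inside the knockout range, its log2 change was 1.55 (SE 0.60, edgeR adjusted p = 0.103). Klre1, a receptor chain of NK cells, was 0.259, 0.210, 0.468, 1.37 and 0.279 CPM in wild type and 2.65, 1.16, 1.56, 2.06 and 2.04 CPM in knockout. Klre1 rose by 1.88 (SE 0.48, edgeR adjusted p = 0.0303) on the log2 scale. Klra8, which encodes the activating receptor Ly49H, was 0.104, 0.0526, 0.364, 1.26 and 0.0559 CPM in wild type and 2.16, 1.37, 1.93, 3.52 and 2.20 CPM in knockout. In 3 wild-type tumours this was 1 or 2 reads, and the groups did not overlap. Klra8 rose by 2.60 (SE 0.69, edgeR adjusted p = 0.0347) on the log2 scale. Klra8 belongs to the Ly49 family of near-identical genes, among which the counting can split reads, so its own level is uncertain. Klrk1, the gene of NKG2D, and Klrd1, the gene of CD94, did not pass, with log2 changes of 1.71 and 1.16 (edgeR adjusted p = 0.101 and 0.220). Klre1, Klrd1 and Klrk1 are neighbours on chromosome 6 in the GRCm38.p6 gene order.

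The 3 cytokine and chemokine receptor genes and Xcl1 did not pass. Il2rb, the beta chain shared by the IL-2 and IL-15 receptors, was 5.34 to 45.4 CPM in wild type (median 10.1) and 37.8 to 79.3 CPM in knockout (median 48.4). The log2 change was 1.70 (SE 0.57, edgeR adjusted p = 0.0764), and only wild-type replicate 4 overlapped the knockout group. Cxcr3, a receptor for interferon-induced chemokines, and Cxcr6, the receptor for CXCL16, had log2 changes of 1.44 and 1.31 (edgeR adjusted p = 0.0760 and 0.102). Xcl1, a chemokine that T cells and NK cells make for XCR1-bearing dendritic cells, had a log2 change of 1.06 (SE 0.50, edgeR adjusted p = 0.167).

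The 4 transcription factor genes split into a pair that followed the lymphocyte receptors and a pair that did not. Eomes and Tbx21, which direct effector T cells and NK cells, had log2 changes of 1.74 and 1.21 (edgeR adjusted p = 0.0658 and 0.158). Bcl11b, a T cell commitment factor, was 1.71 to 4.11 CPM in wild type and 2.42 to 4.81 CPM in knockout, with a log2 change of 0.24 (SE 0.25, edgeR adjusted p = 0.535). Tcf7, which encodes TCF-1, was 43.4 to 56.8 CPM in wild type and 40.0 to 50.8 CPM in knockout, with a log2 change of -0.18 (SE 0.10, edgeR adjusted p = 0.213). The groups overlapped widely for Bcl11b. For Tcf7 only wild-type replicate 3, at 43.4 CPM, lay below the highest knockout tumour. Bcl11b and Tcf7 were also the only members for which wild-type replicate 4 was not the highest wild-type tumour. They were the only ones that did not pass without it.

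**Figure D3:**
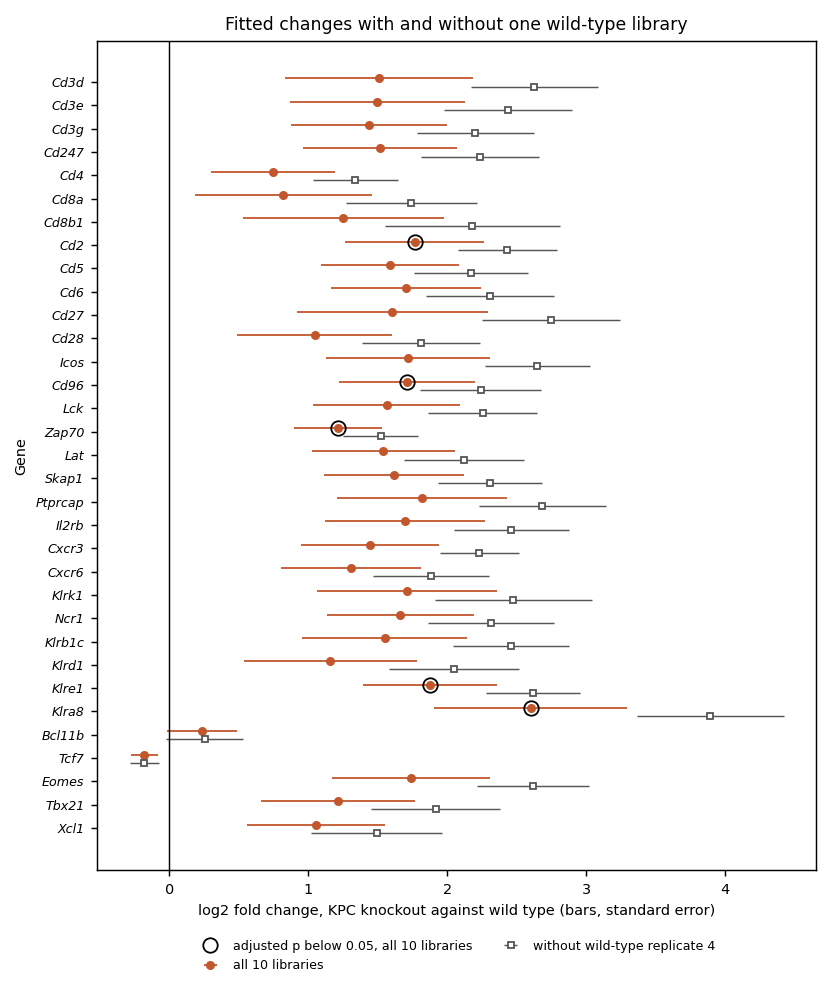
Fitted log2 change of each gene, KPC knockout against wild type, with its standard error, for all 10 libraries (filled circles) and without wild-type replicate 4 (open squares); ringed circles passed an adjusted p of 0.05. Without that library 31 of 33 genes had a larger change and a positive call, with a median of 2.24 against 1.54, while Bcl11b and Tcf7 stayed near 0.

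The count of members that passed depended on wild-type replicate 4. It was the highest wild-type tumour for 31 of 33 members, all but Bcl11b and Tcf7. It was above the lowest knockout tumour for 31, all but Ncr1 and Klra8. It was above the median knockout tumour for 18 and above every knockout tumour for 3, Cd4, Cd8a and Tcf7. For Tcf7 wild-type replicates 1, 2 and 5 were above every knockout tumour as well. As a percentage of each gene's mean over 10 libraries, the median over members was 14.9, 37.8, 55.1, 132 and 18.5% in wild-type replicates 1 to 5. In knockout replicates 1 to 5 it was 206, 102, 124, 168 and 124%. Knockout replicate 1 was the highest knockout tumour for 27 members and knockout replicate 2 the lowest for 24. All knockout tumours lay above all wild-type tumours for 2 members, Ncr1 and Klra8, where 4.71% of all genes did so. For Ncr1 the margin was less than a single read. A count of 2 of 33 members is near the share of all genes. Without wild-type replicate 4 that count was 31, against 10.2% of all genes. The edgeR fit without it called 31 members higher and 0 lower, against 11.5% of all genes called higher. The 5 members that passed with all tumours then had log2 changes of 1.52 (Zap70), 2.24 (Cd96), 2.43 (Cd2), 2.62 (Klre1) and 3.89 (Klra8), with edgeR adjusted p of 0.00211 to 0.00807. The labels give no ground for leaving this tumour out, and its values were known when the count of groups that do not overlap was repeated without it.

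Leaving out any other tumour lowered the count of members that passed. It was 0 without wild-type replicate 1, 2, 3 or 5 and without knockout replicate 1, 3 or 4, with 17 to 21 members higher at an unadjusted edgeR p of 0.05 in each of these fits. Without knockout replicate 2, Klra8, Klre1 and Zap70 passed, and without knockout replicate 5, Zap70 alone. With all 10 tumours, DESeq2 called 21 members higher, against 8.93% of all 18253 genes with a count. Limma-voom with library quality weights and all 10 tumours called 31, against 11.5% of the 14283 genes kept by the count filter. These shares rest on different sets of genes. With the replicate number as a block edgeR called 13, against 6.81% of all genes, though the numbers are not shown to pair the tumours. Over 20 alternative fits the change was positive in every one for each of 32 members and negative in every one for Tcf7. Zap70 passed in 12 of these fits, Klra8 and Klre1 in 11, Cd96 in 10 and Cd2 in 9.

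**Figure D4:**
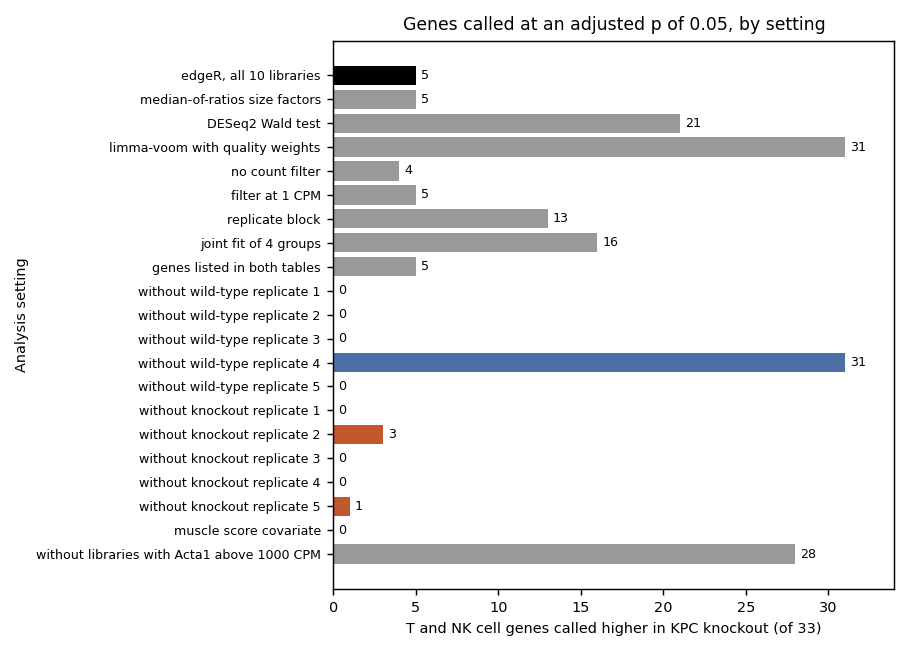
Number of the 33 genes called higher in KPC knockout, by setting, with the fit of all 10 libraries in black, fits without a wild-type library in blue and without a knockout library in orange, and other alternatives in grey. The count is 5 with all libraries, 31 without wild-type replicate 4 and 0 in 8 of the other settings.

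Some markers of other leukocytes and all tested epithelial markers were higher in KPC knockout tumours too, where 6.67% of all tested genes were called higher. Ptprc, the gene of the pan-leukocyte antigen CD45, was 51.1, 54.8, 93.6, 143 and 52.3 CPM in wild type and 217, 105, 135, 217 and 137 CPM in knockout. Its log2 change was 1.05 (SE 0.33, edgeR adjusted p = 0.0596), and wild-type replicate 4 and knockout replicates 1 and 4 stood high for it, as for most members. Of 10 macrophage markers, 0 passed, with a median log2 change of 0.66 and a summed level of 1933 to 4176 CPM in wild type and 3077 to 5058 CPM in knockout. Of 5 tested B and plasma cell markers, 4 rose, with summed levels of 1.90 to 11.0 CPM and 10.5 to 119 CPM. Of 8 dendritic cell markers 4 rose (43.5 to 156 and 169 to 325 CPM), and of 6 neutrophil markers 2 rose (25.2 to 61.0 and 70.7 to 183 CPM). These 2 were Ly6g and Retnlg, and Retnlg went from a mean of 3.66 to 55.1 CPM. The neutrophil markers S100a8, S100a9, Csf3r and Cxcr2 did not pass, with edgeR adjusted p of 0.167 to 0.667. Of 6 tested eosinophil and ILC2 markers 3 rose, all known from eosinophils (32.1 to 49.98 and 59.3 to 135 CPM in sum over the list). Their log2 changes were 2.42 (Siglecf), 3.58 (Ccr3) and 3.79 (Prg2), with edgeR adjusted p of 0.0070 to 0.00777. Il1rl1, Gata3 and Rora did not pass, with edgeR adjusted p of 0.0601, 0.437 and 0.750. Epx, a further eosinophil marker of the list, was not tested and averaged 0.03 CPM over wild-type tumours and 0.02 CPM over knockout ones. Il5 and Il13, not tested either, went from means of 0.02 and 0.03 CPM to 0.55 and 0.48 CPM. Of 6 pan-leukocyte markers 2 rose, Cd52 and Arhgdib (327 to 871 and 686 to 1453 CPM). All 6 epithelial markers rose (5390 to 6294 and 9138 to 10986 CPM). Endothelial and fibroblast markers had 0 calls of 6 each. With wild-type replicate 4 left out, 6 pan-leukocyte, 3 eosinophil and ILC2, 9 macrophage, 5 B and plasma cell, 8 dendritic cell, 2 neutrophil and 2 endothelial markers were higher. In that fit 11.5% of all genes were called higher. The part of these cells in the members' change was not tested.

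Skeletal muscle transcripts differed widely between the same tumours, and their fitted changes were negative. The 10 muscle markers summed to 619 to 35117 CPM in wild type and 19.7 to 7238 CPM in knockout, with 0 calls and a median log2 change of -2.03. The muscle actin gene Acta1 was 823, 7324, 461, 1897 and 177 CPM in wild type and 12.3, 1174, 2.14, 9.54 and 1596 CPM in knockout. With a muscle score as a covariate in the edgeR fit, 0 members passed, 12 were higher at an unadjusted p of 0.05, and 1.06% of all genes were called higher. Without the 4 libraries with Acta1 above 1000 CPM, wild-type replicates 2 and 4 and knockout replicates 2 and 5, 28 members were higher, against 8.33% of all genes. That subset also lacks wild-type replicate 4, so the effect of muscle and of that tumour on the count cannot be told apart.

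Ratios between genes within a tumour were compared as well, since RNA of cells that express neither gene does not change them. They are ratios of CPM, not corrected for gene length, so they compare tumours and not genes. Of 6 ratios compared, 2 differed between genotypes after adjustment over the 6. Cd8a was 170, 192, 219, 197 and 200% of Cd3e in wild-type replicates 1 to 5 and 119.7, 146, 155, 92.9 and 126% in knockout replicates 1 to 5. In wild-type replicates 1 and 5 Cd3e was 0.518 and 0.559 CPM, where 1 count was 0.0518 and 0.0559 CPM. The ratios of these tumours rest on few reads. Every knockout ratio was below every wild-type ratio, wild-type replicate 4 included. The difference was -0.58 on the log2 scale with 0.1 CPM added (exact two-sided permutation p = 0.00794, adjusted p = 0.0238, n = 5 each). With 1 CPM added it was -0.35 (adjusted p = 0.214 by the same permutation test), and without knockout replicate 4 it was -0.47 (adjusted p = 0.0714), so the call was lost under both. The Cd2 level was 3.55, 6.72, 4.34, 7.82 and 2.99% of Ptprc in wild type and 10.3, 11.9, 8.18, 8.18 and 8.47% in knockout. These groups did not overlap either, with a log2 difference of 0.93 (exact two-sided permutation p = 0.00794, adjusted p = 0.0238, n = 5 each). Both ratios still passed without wild-type replicate 4, at -0.56 (adjusted p = 0.0317) for Cd8a to Cd3e and 1.10 (adjusted p = 0.0238) for Cd2 to Ptprc by the permutation test. Leaving out any 1 knockout tumour ended the Cd2 to Ptprc call, with adjusted p of 0.0714 to 0.143 (permutation test). Among further ratios looked at later without a test, Cd8b1 to Cd3e overlapped between genotypes and Cd4 to Cd3e did not. Which cells the Cd8a and Cd4 transcripts came from was not tested.

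The other 4 ratios did not pass. Cd3e was 1.01 to 5.29% of Ptprc in wild type and 3.90 to 4.77% in knockout, a log2 difference of 0.94 (exact two-sided permutation p = 0.0794, adjusted p = 0.159). Without wild-type replicate 4, in which the ratio was highest, the difference was 1.23 and the adjusted p 0.0238 by the same permutation test. The Cd8a level was 17.5 to 49.7% of Cd4 in wild type and 31.5 to 63.3% in knockout, a difference of 0.45 (adjusted p = 0.333, permutation test). Ncr1 to Cd3e, an NK gene set against a T cell gene, differed by -0.23 (adjusted p = 0.659, permutation test). Zap70 to Ptprc differed by 0.15 (adjusted p = 0.495, permutation test). A p that misses the threshold does not show that the ratios were alike.

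**Figure D5:**
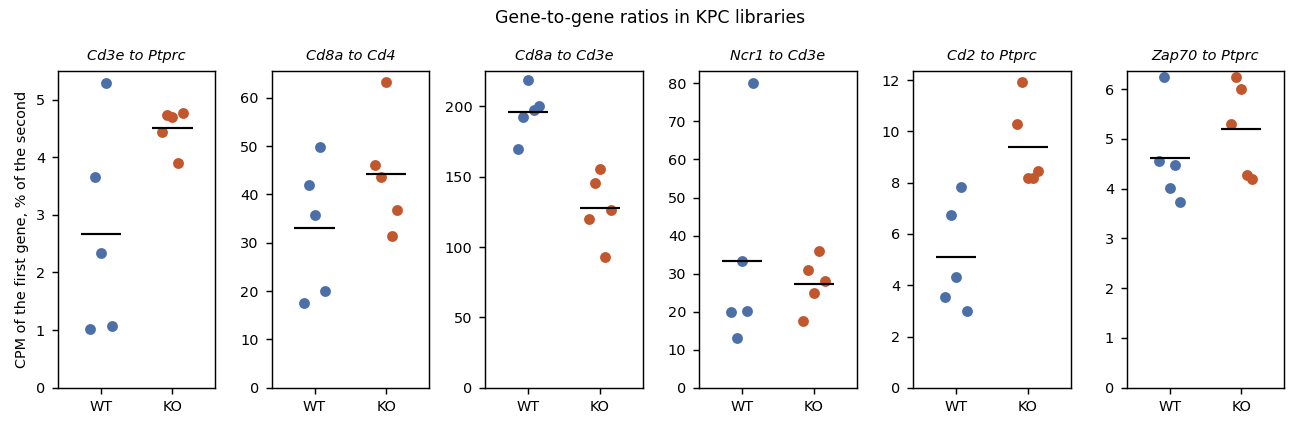
The 6 gene-to-gene ratios in the 10 KPC libraries, each as CPM of the first gene in percent of the second on its own linear axis from 0, with group means as bars. The genotypes do not overlap for Cd8a to Cd3e, at 170 to 219% in wild type and 92.9 to 155% in knockout, or for Cd2 to Ptprc, and overlap for the other 4.

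Most members were at or near 0 in ID8. The labels call these samples tumours, but transcripts of host cells were scarce in them. Besides the leukocyte genes below, no ID8 library held a count of the macrophage genes Adgre1 and C1qa, the endothelial genes Cdh5 and Kdr or the haemoglobin gene Hbb-bs. The 6 endothelial markers summed to 1.69 to 2.64 CPM, against 291 to 458 CPM in KPC, and the 10 macrophage markers to 3.83 to 12.4 CPM, against 1933 to 5058 CPM. Whether the ID8 RNA came from whole tumours cannot be told from these sources, so low lymphocyte levels there are not read as a lack of infiltration. In all 6 libraries 15 members had 0 counts, namely Cd3d, Cd3e, Cd3g, Cd4, Cd8a, Cd8b1, Cd2, Cd27, Cd96, Zap70, Ncr1, Klrd1, Klra8, Eomes and Tbx21. A count of 0 allows up to 0.152 to 0.158 CPM per library (3 counts, counting error only). A further 10 members had 1 to 10 counts over the 6 libraries together, and 8 had more. Among the 8 were Cd247, with 13 counts over the wild-type and 23 over the knockout libraries, and Lck, with 4 and 13. Ptprc had 0 counts in every ID8 library as well. The genes of the receptor complex and the coreceptors were therefore not detected in ID8 apart from Cd247.

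Only Cd28, Bcl11b and Tcf7 passed the count filter in ID8. Cd28 was 0.558, 1.39 and 0.923 CPM in wild type and 0.210, 0.420 and 0.316 CPM in knockout, from 56 and 18 counts in all. The groups did not overlap, and Cd28 fell by 1.65 on the log2 scale (SE 0.41, edgeR adjusted p = 0.00315), where 25.5% of all 11933 genes tested in ID8 were called lower. Fitted with all 4 groups together the edgeR adjusted p of this fall was 0.170. Bcl11b was 4.26, 4.11 and 4.56 CPM in ID8 wild type and 5.30, 5.20 and 5.48 CPM in ID8 knockout. Its log2 change was 0.23 (SE 0.12, edgeR adjusted p = 0.124), a change that did not pass although the groups did not overlap. Tcf7 was 10.2, 9.92 and 12.1 CPM in ID8 wild type and 13.0, 13.1 and 12.4 CPM in ID8 knockout. Its log2 change was 0.18 (SE 0.09, edgeR adjusted p = 0.126). Transcripts of Bcl11b and Tcf7 were thus present where CD45 and CD3 transcripts were not detected.

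The difference between the lines came from a fit of all 16 libraries, in which 0 of the 33 members passed, where 21.8% of 14921 genes did. At an unadjusted edgeR p of 0.05 there were 3, namely Cd28, Cd5 and Tcf7. For the 15 members with 0 counts in ID8 the fit gives no usable difference. Another 15 had 1 to 61 counts over the 6 ID8 libraries, and their lowest edgeR adjusted p was 0.114, for Cd5, which rested on 4 ID8 counts in all. Their levels were too low for the ID8 fit, and they are not described further. For Cd28 the KPC change exceeded the ID8 change by a log2 value of 2.71 (SE 0.94, adjusted p = 0.0504 by edgeR), just outside the threshold, and by 3.50 (adjusted p = 0.00237 by edgeR) without KPC wild-type replicate 4. For Bcl11b the difference was 0.04 (SE 0.35) and for Tcf7 -0.33 (SE 0.15, adjusted p = 0.127 by edgeR). In the fit without KPC wild-type replicate 4, 5 members passed, Cd28 and the thinly counted Cd5, Cxcr3, Icos and Il2rb.

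Other genes of the same pathways mostly had positive fitted changes in KPC, with a minority called in each list. For these lists, as for the markers of other cells, the only alternative fit given is that without wild-type replicate 4. Among the members, leaving out any other tumour lowered the count, so the list counts are not shown to hold under other exclusions. Of all tested genes 6.67% were called higher and 7.01% lower. Of 25 further T cell receptor signalling genes 5 rose and 0 fell, with a median log2 change of 1.03 against -0.01 over all genes. Fyn, a kinase related to LCK, rose from 52.7 ± 6.83 to 74.9 ± 8.43 CPM (SD, n = 5 each, here and below). Ptpn22, a phosphatase that restrains receptor signalling, rose from 21.8 ± 7.68 to 40.2 ± 7.09 CPM, and Rasgrp1, which activates RAS, rose from 9.63 ± 3.78 to 19.7 ± 5.46 CPM. Rasgrp1 was at 0 CPM in every ID8 library and Ptpn22 at no more than 0.256 CPM. Fyn was present in ID8, where Ptprc had 0 counts, with group means of 17.3 CPM (wild type) and 21.0 CPM (knockout). It rose there by 0.20 on the log2 scale (SE 0.07, edgeR adjusted p = 0.0317), where 25.4% of all genes were called higher. The cells that gave the Fyn transcripts were not tested for. The count that rose was 19 of the 25 without wild-type replicate 4, against 11.5% of all genes. Of the 6 constant segments of the antigen receptors, 0 were found by symbol in the count tables, so they could not be analysed.

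Of 20 tested further NK receptor and adaptor genes, 5 rose and 1 fell, with a median log2 change of 1.36. The shares over all tested genes were 6.67% higher and 7.01% lower. Klrg1, an inhibitory receptor of mature NK cells and effector T cells, rose from 1.64 ± 0.795 to 5.13 ± 1.49 CPM, with a log2 change of 1.66 (SE 0.32, edgeR adjusted p = 0.0115). Klra7, the gene of Ly49G, rose from 0.5683 ± 0.606 to 3.45 ± 0.831 CPM, with a log2 change of 2.60 (SE 0.53, edgeR adjusted p = 0.0137). Klra4, the gene of Ly49D, fell from 7.83 ± 2.29 to 4.11 ± 0.534 CPM, with a log2 change of -0.92 (SE 0.20, edgeR adjusted p = 0.0171). The values of Klra4 and Klra7 are uncertain in the same way as that of Klra8, since reads can be split among these near-identical genes. Klra4 was also detected in ID8, where Klra7, Klra8 and Ptprc were at 0. It was 1.29 to 1.49 CPM in ID8 wild type and 2.15 to 2.74 CPM in ID8 knockout. There Klra4 rose by 0.71 on the log2 scale (SE 0.19, edgeR adjusted p = 0.00588), where 25.4% of all genes were called higher. Which cells its transcripts came from was not tested. Of 7 tested cytotoxic effector genes, 3 rose and 0 fell (median 1.53). They were the granzyme genes Gzma, from 1.08 ± 1.04 to 6.95 ± 1.34 CPM, and Gzmb, from 3.58 ± 2.42 to 11.3 ± 4.15 CPM, and the perforin gene Prf1, from 1.81 ± 0.810 to 3.61 ± 0.693 CPM. On leaving out wild-type replicate 4, 6 of these 7 and 19 of the 20 NK genes were higher, against 11.5% of all genes.

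Of 10 lymphocyte cytokine receptor genes 2 rose, Il2ra, the high-affinity chain of the IL-2 receptor, from 5.68 ± 3.61 to 18.5 ± 6.65 CPM, and Il21r from 8.94 ± 5.06 to 19.9 ± 4.61 CPM. Of 16 further lymphocyte transcription factor genes 3 rose and 1 fell. Foxp3, the factor of regulatory T cells, rose from 4.45 ± 3.28 to 13.3 ± 4.81 CPM, with a log2 change of 1.6 (SE 0.43, edgeR adjusted p = 0.0368). Lef1, a relative of Tcf7, rose from 1.64 ± 0.539 to 3.29 ± 0.939 CPM, while Runx1, which is not limited to lymphocytes, fell from 121 ± 11.0 to 99.5 ± 6.21 CPM. Of 10 homing genes 1 rose, the chemokine receptor gene Ccr8, from 1.02 ± 0.673 to 2.76 ± 0.798 CPM. Among all tested genes 6.67% were called higher and 7.01% lower, so 1 of 10 is near that share. With wild-type replicate 4 left out, 7 of the 10 cytokine receptor genes, 6 of the 16 transcription factor genes and 8 of the 10 homing genes were higher. In that fit 11.5% of all genes were called higher.

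Of 18 tested partners that bind the members' products, 5 rose and 0 fell, with a median log2 change of 0.57. The share of all tested genes called higher was 6.67%. Cxcl16, the ligand of CXCR6, rose from 115 ± 30.7 to 199.5 ± 8.84 CPM, with a log2 change of 0.80 (SE 0.15, edgeR adjusted p = 0.0106). All knockout tumours were above all wild-type tumours for Cxcl16, wild-type replicate 4 included. Cxcl16 rose in ID8 knockout too, from a mean of 43.6 to 74.2 CPM (log2 change 0.69, SE 0.06, edgeR adjusted p = 6.97e-08). The KPC change differed from the ID8 change by 0.13 (SE 0.22, adjusted p = 0.775 by edgeR). Of 11 partners tested in ID8, 6 rose and 1 fell, where 25.4% of all genes were called higher and 25.5% lower. Xcr1, the receptor for XCL1 and a marker of one dendritic cell type, rose from 1.98 ± 1.34 to 6.43 ± 2.28 CPM. H2-T23, which encodes the MHC molecule Qa-1 that CD94 receptors read, rose from 98.4 ± 46.2 to 191 ± 31.0 CPM. On leaving out wild-type replicate 4, 6 of the 18 were higher, against 11.5% of all genes.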

How the data were processed

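RNA of 16 samples labelled as tumours was sequenced, in 4 groups taken with their replicate numbers from the labels. The submitters' processing notes name HISAT and RSEM 1.2.8 with GRCm39 (mm39). The authors deposited expected counts for each gene. Between 7.92% and 8.96% of a table's values were fractional, and all were rounded here. A gene not listed in a table was set to 0 there. Strand setting and filters are not given in the sources used. Of the sample columns, 0 were left unused.

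CPM are counts per 1000000 of the library total. Tests used edgeR 4.0.16 in R 4.3.3, with limma 3.58.1. Libraries were scaled by TMM, genes kept by filterByExpr, and a robust quasi-likelihood fit was made for each line, with Benjamini-Hochberg adjusted p below 0.05 over all tested genes as the call. The lines were compared by an interaction term over 16 libraries. Standard errors were obtained from the log2 fold change and the root of the F statistic, which is approximate. Ratios within libraries used log2 with 0.1 CPM added and exact two-sided permutation tests, adjusted over 6. The procedure was tested on simulated data. Alternatives were median-of-ratios size factors, DESeq2 1.42.0, limma-voom with quality weights, other filters, a replicate block, a joint fit, genes listed in both tables, a muscle covariate, libraries with Acta1 up to 1000 CPM and leaving out each library.

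The members, gene lists, tests and alternatives were chosen with earlier results of these data known. Values per library are given for members that passed in KPC, the receptor complex, Cd4, Cd8a, Cd8b1, Ncr1 and Klrb1c, and other members are given by range and count, beside those that a result turned on. Of each further list at most the 3 called genes of smallest p are named. RefSeq promoters are on GRCm38.p6, so no coordinates are given for the counted genes.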

Additional observations from a re-analysis of the deposited data

Results flagged for a closer look

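Within KPC, 80 sets of 5 values (members, Trp53bp1 and the 6 ratios, by genotype) were checked for a tumour far from the other 4 of its group by Dixon's 95% criterion. Chance flags about 1 in 20 such sets, and 17 were flagged, all of them members with 1 high value. As members move together, these are not 17 separate events. KPC wild-type replicate 4 was the high tumour for 13 of them, at 9.08 CPM for Cd3d, 7.56 for Cd3e, 14.9 for Cd8a, 11.2 for Cd2, 3.62 for Cd27, 5.83 for Cd28 and 10.6 for Icos. The same tumour had 4.15 CPM of Skap1, 6.77 of Ptprcap, 6.56 of Cxcr3, 1.37 of Klre1, 1.26 of Klra8 and 3.36 of Eomes. KPC knockout replicate 1 stood above the other knockout tumours for Cd8b1 (6.22 CPM), Lat (15.5 CPM) and Cxcr6 (12.8 CPM). KPC knockout replicate 4 did so for the NK cell gene Ncr1 (3.03 CPM). No flag fell on Trp53bp1 or on any ratio.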

How the results depend on the processing

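Of the 33 members, 5 were called higher in KPC knockout with all libraries. The count was 21 by DESeq2, 31 by limma-voom, 16 in the joint fit of 4 groups, 28 without libraries with Acta1 above 1000 CPM, 0 with the muscle covariate and 0 to 31 on leaving out 1 library, and 0 members were called lower in any of these. All genes called numbered 1953, and 3195, 3149, 3524 and 399 under DESeq2, limma-voom, the joint fit and the muscle covariate, and 934 to 3106 on leaving out 1 library. Groups did not overlap for 2 members, and for 31 without KPC wild-type replicate 4. In ID8 the count called lower was 1 (Cd28), and 0 in the joint fit and with a filter at 1 CPM, which removes that gene. The count called higher there was 0 to 1 on leaving out 1 library, with Tcf7 passing without wild-type replicate 3 and Icos without knockout replicate 3. Between lines it was 0 to 5 on leaving out 1 library, and the Bcl11b difference ranged from -0.13 to 0.17.

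The log2 difference of Cd8a to Cd3e was -0.65 to -0.47 on leaving out 1 library, -0.35 with 1 CPM added and -0.62 without high-Acta1 libraries, and that of Cd2 to Ptprc 0.77 to 1.10 on leaving out 1 library and 1.24 in the same subset. In that subset of 3 against 3 tumours neither can pass (exact permutation p = 0.1 at the least). On leaving out 1 library Cd3e to Ptprc ranged from 0.70 to 1.23 and Ncr1 to Cd3e from -0.46 to 0.11. With 1 CPM added these were 0.39 and -0.58, and Zap70 to Ptprc was -0.040, and without high-Acta1 libraries the first 2 were 1.503 and -0.84. The cause of these shifts was not tested.

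Groups share replicate numbers, but same-numbered tumours did not deviate together throughout (r of -0.16, 0.587, 0.171, 0.276 and -0.536 in KPC), and not every tumour matched its own number best. With the number as a block, 13 members were called higher in KPC, against 6.81% of all genes (1665 genes called in both directions), and 1 (Cd28) between lines. Paired by number, the log2 differences of Cd8a to Cd3e (-0.58) and Cd2 to Ptprc (0.93) had an adjusted p of 0.188 by an exact permutation test, which cannot pass, since 5 pairs give p = 0.0625 at the least.

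Depth limits the rarest members, as 1 count was up to 0.0559 CPM and Klra8 and Ncr1 had 1 or 2 counts in some wild-type tumours.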

Other observations

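Further ratios besides the 6 tested were looked at after the Cd8a to Cd3e values were seen, and are given without a test. Among the KPC tumours Cd4 was 397 to 1000% of Cd3e where Trp53bp1 was intact and 245 to 344% where it was knocked out, and these groups did not overlap either. Wild-type replicates 1 and 5, with the least Cd3e, had the highest values, at 970.0% and 1000%. Cd8b1 was 20 to 65.8% of Cd3e in wild type and 29.5 to 64.6% in knockout, with overlap. Cd8b1 was 10 to 34.2% of Cd8a in wild type and 24.5 to 54.0% in knockout, also with overlap. In wild-type replicate 5 Cd8b1 was 0.112 CPM, at the level of 2 reads.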
